A study of Homo sapiens with 6 samples.

Results

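Aminoacyl-tRNA synthetases are the enzymes that join each amino acid to its transfer RNA. Their genes were followed in 6 subcutaneous tumours that Huh7 cells, a human liver cancer line, formed in nude mice. The members follow a naming rule that uses no measured values, but they were chosen with earlier results of these data known. The rule takes genes whose current symbol is a 1-letter amino acid code followed by ARS1 or ARS2, together with EPRS1, FARSA and FARSB. RefSeq holds 37 such genes, and 35 of them had a probe set with a gene symbol among the 24726 probe sets of the array. The remaining 2 probe sets matched by gene ID alone, are unnamed here and entered only an alternative count. Of the 35 genes, 19 encode cytosolic enzymes (names ending in 1, with EPRS1, FARSA and FARSB) and 16 encode mitochondrial enzymes (names ending in 2).

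Both groups carried cells that had been stably transfected, selected with G418 and sorted for GFP. In 3 IR-A tumours the plasmid was pRcCMVi.hIR-A(GFP), which codes for the human insulin receptor in its isoform A, and in 3 control tumours it was the empty vector. Whether a group came from 1 clone or a pool of cells, and which mouse carried which tumour, is not known from the sources used here. The p-values therefore reflect only how far these tumours differ from each other, and part of that spread may be technical. Nude mice lack mature T cells, and other host cells can enter such tumours. The values are log2 signals, 1 array per tumour, and the number of arrays limits the precision.

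The receptor transcript, INSR, lay 2.95 higher in IR-A tumours on the log2 scale (SE 0.26, adjusted p = 0.0769 in limma). The groups did not overlap in INSR, but it did not pass the adjusted p of 0.05 used throughout. Hepatocyte markers such as albumin were bright in every tumour, with list means from 11.11 to 11.30 in control and 11.35 to 11.43 in IR-A tumours, without overlap. In this list 8 of 11 lay above 0, and 5 were higher at an unadjusted p under 0.05 (45.5%, against 7.1% of all probe sets). Macrophage markers had list means of 5.72 to 5.86 in control and 6.09 to 6.18 in IR-A tumours, without overlap. Of these, 5 of 8 lay above 0, TYROBP and CD68 with an unadjusted p under 0.05 (25%, against 7.1% of all probe sets). CD163 read at most 3.04 and the leukocyte marker PTPRC at most 2.99 in any tumour, below the median probe set (4.71). Others of the macrophage list were bright, with CD68 from 9.94 to 11.13 and LYZ from 10.85 to 12.18 across tumours. Fibroblast markers, 6 of 9 above 0, had list means of 4.36 to 4.71 in control and 4.73 to 4.83 in IR-A tumours, also without overlap. At an unadjusted p under 0.05, 3 of them were higher (33.3%, against 7.1% of all probe sets). These were LUM (1.26), COL1A2 (0.83) and COL1A1 (0.40), none past the adjusted threshold. LUM read at most 4.33 in any tumour. Endothelial (2 of 8 above 0, 3.85 to 4.01 in control and 3.90 to 3.93 in IR-A tumours) and lymphocyte lists (1 of 7 above 0, 3.30 to 3.56 and 3.31 to 3.44) overlapped. The part of such cells in the results was not tested, and in whole tumours fewer cells of a type and less RNA per cell cannot be told apart. The probe sets are named for human genes, and the host is a mouse. Whether the marker signals come from host cells or from the Huh7 cells themselves was not tested. Control tumour 2 correlated less with the other controls (mean r = 0.982 across probe sets) than with the IR-A tumours (0.987).

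Each synthetase recognises 1 amino acid and its transfer RNAs, activates the amino acid with ATP and transfers it to the RNA, which then serves the ribosome. The enzymes fall into class I and class II by the fold of the catalytic domain. Human cells make most of them from separate nuclear genes, one for the cytosol and one for import into mitochondria, while GARS1 and KARS1 supply both compartments and glutamine has no mitochondrial enzyme of its own. Several cytosolic enzymes assemble with the scaffold proteins AIMP1, AIMP2 and EEF1E1 into the multisynthetase complex. Many cytosolic synthetase genes are targets of ATF4, the transcription factor that amino acid shortage induces, and insulin signalling raises protein synthesis through mTOR in many cells.

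Promoter sequences are shown because 2 features bear on how the genes could move together: the response element through which ATF4 acts and a promoter region shared by 2 members. RefSeq promoter windows of GRCh38.p14, from 250 bases before to 50 bases after the start, were at hand for 30 of the 35 genes. The letters TGATGNAAN, searched on both strands, were found in 6 of 16 cytosolic promoters (37.5%) and 1 of 14 mitochondrial ones (7.14%), against 3.67% of 27305 promoters of that length. Among promoters of the amino acid response genes listed further on, 4 of 24 (16.7%) held them. The share was the same among the interferon gamma response genes listed there, 2 of 12 (16.7%). A match is a description of the letters in the window, and the start base counts as 0. Capitals mark the match in these 29-base stretches, written 5′ to 3′ on the gene's strand; a stretch that reads GTTGCATCA or ATTGCATCA holds the match on the other strand.
AARS1 at chr16:70289676-70289704, match from -188 to -180: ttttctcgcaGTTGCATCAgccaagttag
CARS1 at chr11:3057408-3057436, match from -3 to 5: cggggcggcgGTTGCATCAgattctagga
IARS1 at chr9:92293693-92293721, match from -14 to -6: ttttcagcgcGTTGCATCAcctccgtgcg
MARS1 at chr12:57488053-57488081, match from -5 to 3: gccggttccgGTTGCATCAgcgagggatt
NARS1 at chr18:57621804-57621832, match from 14 to 22: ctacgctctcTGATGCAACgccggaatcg
TARS1 at chr5:33440956-33440984, match from 1 to 9: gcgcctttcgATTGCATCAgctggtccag
YARS2, mitochondrial, at chr12:32756076-32756104, match from -197 to -189: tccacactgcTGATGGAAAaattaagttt

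In the 6 cytosolic matches the letters sit next to the start in 5 genes, whereas in AARS1 they lie farther upstream. HARS1 and HARS2, for the cytosolic and the mitochondrial histidyl enzyme, lie head to head, and theirs was the 1 pair of members with overlapping windows. The 84 bases between their starts, at chr5:140691371-140691454, are shown on the strand of HARS2, in lower case throughout, and 59.5% of them are G or C.
HARS1 to HARS2: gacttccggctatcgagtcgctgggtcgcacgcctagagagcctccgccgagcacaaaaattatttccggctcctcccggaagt

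The comparison of IR-A with control tumours asks how the transcripts of these enzymes differed when the receptor was added. Most synthetase transcripts lay lower in IR-A tumours, 28 of 35, and 18 of 19 among the cytosolic ones, but no single gene passed. The 28 are 80% of the members, and 56% of all probe sets lay below 0. In limma, with p-values adjusted by Benjamini-Hochberg across the whole array, 0 of 35 had an adjusted p under 0.05, as had 0% of all probe sets, and the smallest adjusted p of a member was 0.147. At an unadjusted p under 0.05, 13 members lay lower and 1 higher, which is 37.1% lower against 7.03% of all probe sets, and 2.86% higher against 7.1%. The groups did not overlap in 16 members on the lower side (45.7%, against 9.45% of all probe sets) and in 1 on the higher side (against 7.73%). The median difference of the 35 was -0.27 on the log2 scale, against -0.026 over all probe sets.

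**Figure D1:**
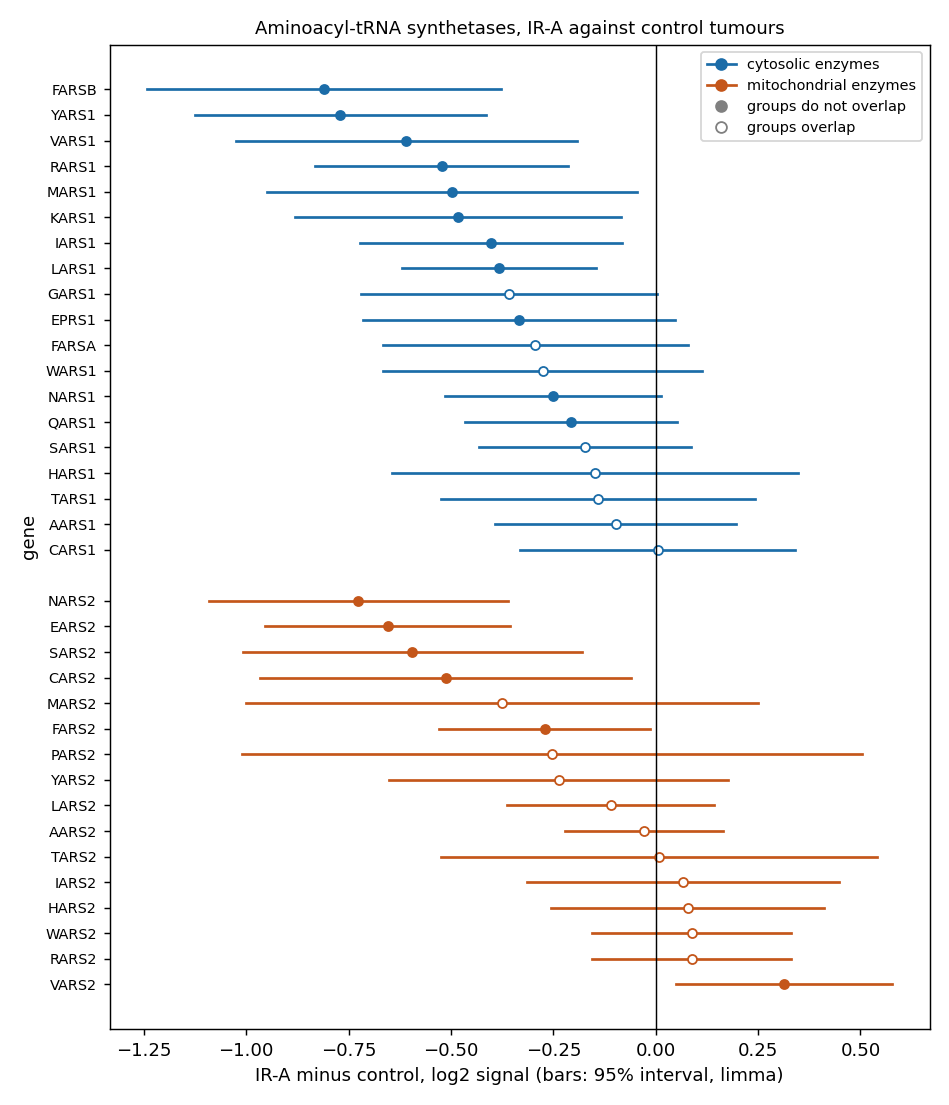
Difference of each of the 35 synthetase genes between 3 IR-A and 3 control tumours on the log2 scale, with 95% intervals from limma, cytosolic enzymes in blue and mitochondrial ones in orange. Filled points mark genes whose groups do not overlap; 18 of 19 cytosolic and 10 of 16 mitochondrial points lie below 0, and the lowest is FARSB at -0.81.

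The cytosolic enzymes had a median difference of -0.33 (middle 50% of genes from -0.49 to -0.19). Of the 19, 8 lay lower at an unadjusted p under 0.05 (42.1%, against 7.03% of all probe sets). In 11 the groups did not overlap on the lower side (57.9%, against 9.45%). FARSB, the beta subunit of the phenylalanyl enzyme, had the most negative difference. Its control tumours read 9.63, 9.46 and 9.23 and its IR-A tumours 8.55, 8.38 and 8.96, means of 9.44 ± 0.20 and 8.63 ± 0.30 (SD, n = 3). Every IR-A tumour lay below every control, with IR-A tumour 3 closest to them. The difference was -0.81 with a 95% interval from -1.24 to -0.38, a signal 1.75-fold lower (adjusted p = 0.160 in limma). Its catalytic partner FARSA differed by -0.29 (SE 0.16), and its groups overlapped.

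YARS1 charges tyrosine. It read 9.18, 8.75 and 8.94 in control and 8.11, 8.06 and 8.39 in IR-A tumours. Again the groups were apart, by 0.36 between the nearest tumours. The difference was -0.77 (interval -1.13 to -0.41, adjusted p = 0.147 in limma), a 1.71-fold lower signal. VARS1, the valyl enzyme, read 8.02, 7.46 and 7.72 in control and 6.93, 7.13 and 7.31 in IR-A tumours, with control tumour 2 nearest to the IR-A tumours. Its difference was -0.61 (interval -1.03 to -0.19, adjusted p = 0.219 in limma).

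Of the 8 enzymes of the multisynthetase complex 7 were measured by name. In all 7 the groups did not overlap, with IR-A tumours lower (100%, against 9.45% of all probe sets). The nearest tumours of both groups were 0.23 apart in LARS1 and 0.19 in RARS1. In the others they were close, from 0.04 apart in MARS1 and QARS1 to 0.10 in KARS1. Their median difference was -0.40, against -0.26 for the 12 other cytosolic genes, 4 of which (33.3%) did not overlap. The mean differences were closer, -0.40 against -0.33, and FARSB, YARS1 and VARS1 are among the 12. In IR-A tumours 1, 2 and 3 the complex averaged -0.45, -0.51 and -0.25, and the 12 averaged -0.40, -0.48 and -0.10. Whether both sets differ was not tested. RARS1, which charges arginine, read 10.19, 9.99 and 9.87 in control and 9.39, 9.42 and 9.68 in IR-A tumours, a difference of -0.52 (interval -0.83 to -0.21, adjusted p = 0.180 in limma). LARS1, the leucyl enzyme that also senses leucine for mTOR complex 1, read 7.92, 7.85 and 7.94 in control and 7.57, 7.38 and 7.62 in IR-A tumours. The 3 controls of LARS1 lay within 0.09 of each other, and the difference was -0.38 (interval -0.62 to -0.15, adjusted p = 0.191 in limma). MARS1 for methionine (-0.50), KARS1 for lysine (-0.48) and IARS1 for isoleucine (-0.40) had unadjusted p values of 0.0352, 0.0241 and 0.0211. EPRS1, a fusion of the glutamyl and prolyl enzymes (-0.33), and QARS1 for glutamine (-0.21) missed that level. Leaving out 1 tumour moved several of these values: without control tumour 1 EPRS1 differed by -0.17 and KARS1 by -0.32, without IR-A tumour 2 MARS1 by -0.32, and without control tumour 3 QARS1 by -0.12. The scaffold AIMP1 differed by -0.29 (unadjusted p = 0.0584) without overlap.

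Among the other cytosolic enzymes, GARS1 for glycine differed by -0.36, with an unadjusted p of 0.0510 and overlapping groups, and NARS1 for asparagine by -0.25, without overlap. WARS1 for tryptophan (-0.28), SARS1 for serine (-0.17), HARS1 for histidine (-0.15), TARS1 for threonine (-0.14) and AARS1 for alanine (-0.10) had overlapping groups. Without IR-A tumour 2, GARS1 differed by -0.23, WARS1 by -0.12 and FARSA by -0.16. CARS1, the cysteinyl enzyme, was the 1 cytosolic gene not below 0. It read 7.00, 6.84 and 6.91 in control and 6.86, 6.72 and 7.19 in IR-A tumours, with a difference of 0.0050 whose interval ran from -0.33 to 0.34, and of -0.020 after quantile normalization. Both the highest and the lowest tumour for CARS1 were IR-A tumours.

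Set against the promoter letters, the 6 cytosolic genes with a match had a median difference of -0.20 (from -0.50 in MARS1 to 0.0050 in CARS1). The 10 with a window but no match had -0.31. Groups did not overlap, on the lower side, in 3 of the 6 and in 5 of the 10, against 9.45% of all probe sets. YARS1, LARS1 and VARS1 had no window in the table, and the difference between both sets of genes was not tested.

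The mitochondrial enzymes were divided. Their median difference was -0.17, with the middle 50% of genes from -0.41 to 0.07, and 10 of 16 lay below 0. At an unadjusted p under 0.05, 5 lay lower (31.25%, against 7.03% of all probe sets) and 1 higher (6.25%, against 7.1%). These were also the ones whose groups did not overlap (all probe sets: 9.45% lower, 7.73% higher). EARS2, the mitochondrial glutamyl enzyme, had the smallest p of all members. It read 6.21, 6.06 and 5.99 in control and 5.40, 5.27 and 5.63 in IR-A tumours, a difference of -0.65 (interval -0.95 to -0.36, adjusted p = 0.147 in limma). The lowest control lay 0.36 above the highest IR-A tumour.

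EARS2 also loads glutamate on the glutamine transfer RNA of mitochondria, which an amidotransferase of GATB, GATC and QRSL1 then converts. None of these had an unadjusted p under 0.05. GATC differed by -0.35 (SE 0.16) and GATB by -0.26 (SE 0.13), while QRSL1 differed by -0.0067 (SE 0.14). MTFMT, which formylates the initiator methionyl transfer RNA, differed by -0.0027, and TUFM, the mitochondrial elongation factor that carries charged transfer RNA to the ribosome, by -0.11.

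NARS2, for asparagine, read 8.07, 7.50 and 7.76 in control and 7.00, 7.08 and 7.07 in IR-A tumours. The IR-A tumours agreed closely (7.05 ± 0.05, SD, n = 3), and the controls were spread (7.77 ± 0.29). The difference was -0.73 (interval -1.09 to -0.36, adjusted p = 0.155 in limma). Without control tumour 2, the lowest control, it was -0.87 and passed (adjusted p = 0.0499 in limma), the 1 member called in any setting; then 1.25% of all probe sets were called. SARS2, for serine, read 6.92, 6.67 and 7.17 in control and 6.50, 6.06 and 6.41 in IR-A tumours, a difference of -0.59 (interval -1.01 to -0.18, adjusted p = 0.223 in limma). CARS2 (-0.51) and FARS2 (-0.27) completed the mitochondrial genes with an unadjusted p under 0.05 on the lower side, and CARS2 was -0.30 without IR-A tumour 2.

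VARS2, the mitochondrial valyl enzyme, was the 1 member with higher signal and no overlap. It read 5.49, 5.68 and 5.52 in control and 5.90, 6.01 and 5.73 in IR-A tumours. Its nearest tumours, control 2 and IR-A 3, were only 0.05 apart. The difference was 0.31 (interval 0.05 to 0.58, adjusted p = 0.290 in limma).

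The remaining 10 mitochondrial genes had overlapping groups, with differences from -0.38 in MARS2 to 0.09 in RARS2. The MARS2 value was -0.12 with IR-A tumour 2 left out and -0.18 with control tumour 2 left out. TARS2, for threonine, read 7.65, 7.91 and 7.22 in control and 7.86, 7.27 and 7.68 in IR-A tumours. Its difference of 0.0086 had a wide interval, from -0.52 to 0.54, and turned to -0.019 after quantile normalization. AARS2, for alanine, read 5.80 in all 3 controls and 5.78, 5.74 and 5.80 in IR-A tumours. The same deposited value stood on 4 of its 6 arrays, so this probe set carries little information about differences. PARS2, for proline, was spread most within the controls (5.36, 6.32 and 5.32), with control tumour 2 far above both others. Its difference of -0.25 was 0.08 without that tumour.

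**Figure D2:**
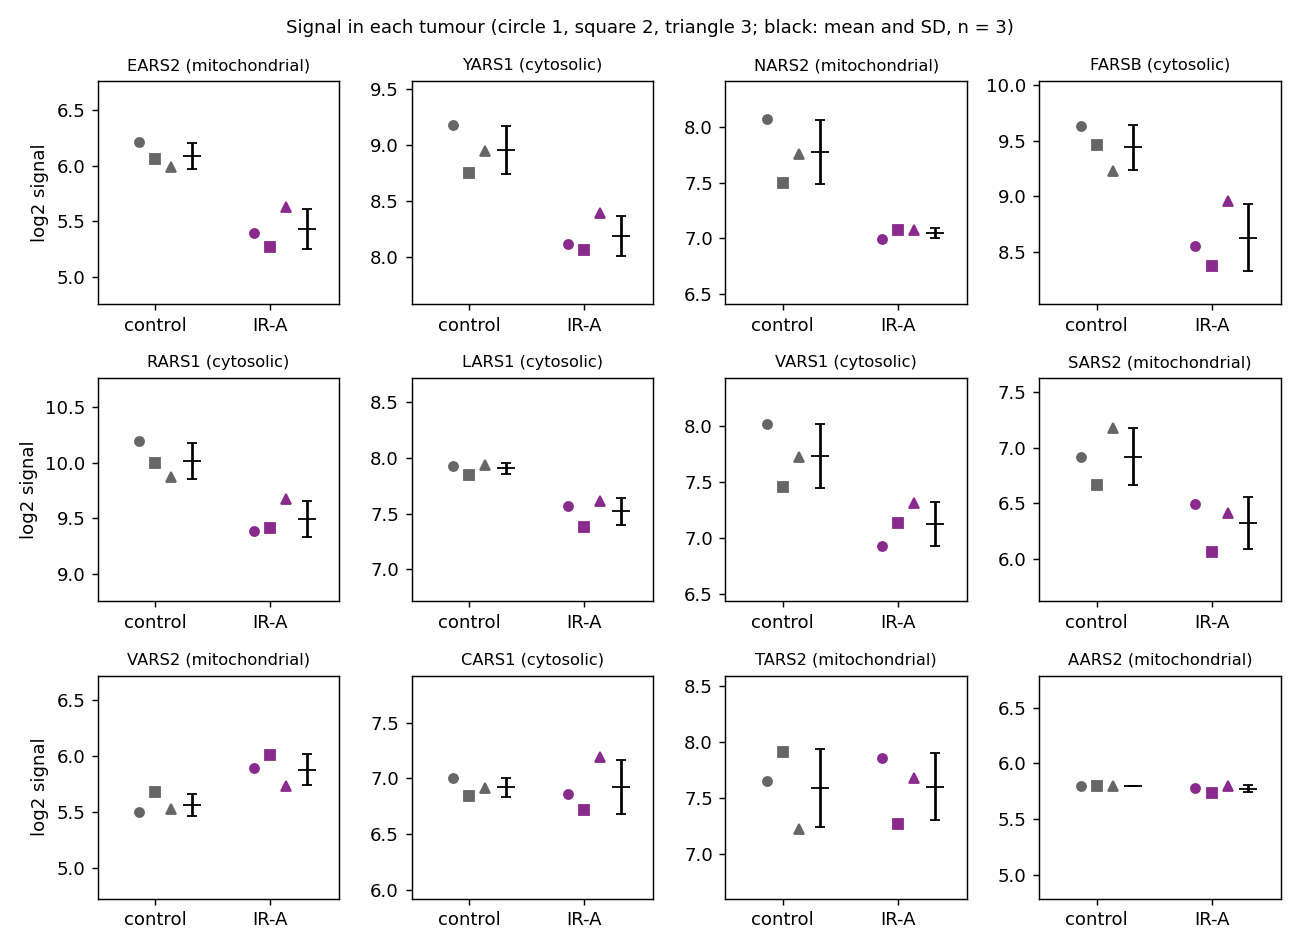
Log2 signal in each of the 6 tumours for the 8 members of smallest p on the lower side, for VARS2 on the higher side and for the 3 with the smallest differences; black marks give the mean and SD of each group (n = 3), and each panel spans the same height of 2 log2 units. In the first 9 panels the groups do not overlap, and in CARS1, TARS2 and AARS2 they do.

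Enzymes for the same amino acid were then set side by side, as differences and not as levels, since levels of different probe sets are not comparable. In 17 pairs of a cytosolic with a mitochondrial gene, the cytosolic difference was the lower one in 13, and the members of a pair had opposite signs in 7. Valine stood at one end, with VARS1 at -0.61 and VARS2 at 0.31. The within-tumour gap between them was centred on the control mean. It read 0.36, -0.39 and 0.03 in control and -1.14, -1.04 and -0.58 in IR-A tumours, so that the groups were apart. An exact two-sided permutation test gave p = 0.1, the smallest that 3 against 3 tumours allow (0.243 adjusted over the 17 pairs).

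Arginine (RARS1 -0.52, RARS2 0.09), phenylalanine (FARSB -0.81, FARS2 -0.27), tryptophan (WARS1 -0.28, WARS2 0.09) and leucine (LARS1 -0.38, LARS2 -0.11) also had gaps that did not overlap on the side of a lower cytosolic enzyme. At the other end were cysteine (CARS1 0.0050, CARS2 -0.51) and asparagine (NARS1 -0.25, NARS2 -0.73), where the mitochondrial enzyme had the lower difference in gaps that did not overlap. These 7 pairs shared the exact p of 0.1. For the catalytic subunit of the phenylalanyl enzyme, FARSA (-0.29), the difference was only 0.022 below that of FARS2, and the gaps overlapped (exact permutation p = 0.9). The head-to-head genes HARS1 (-0.15, interval -0.64 to 0.35) and HARS2 (0.08, interval -0.26 to 0.41) had gaps that overlapped (exact permutation p = 0.6).

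**Figure D3:**
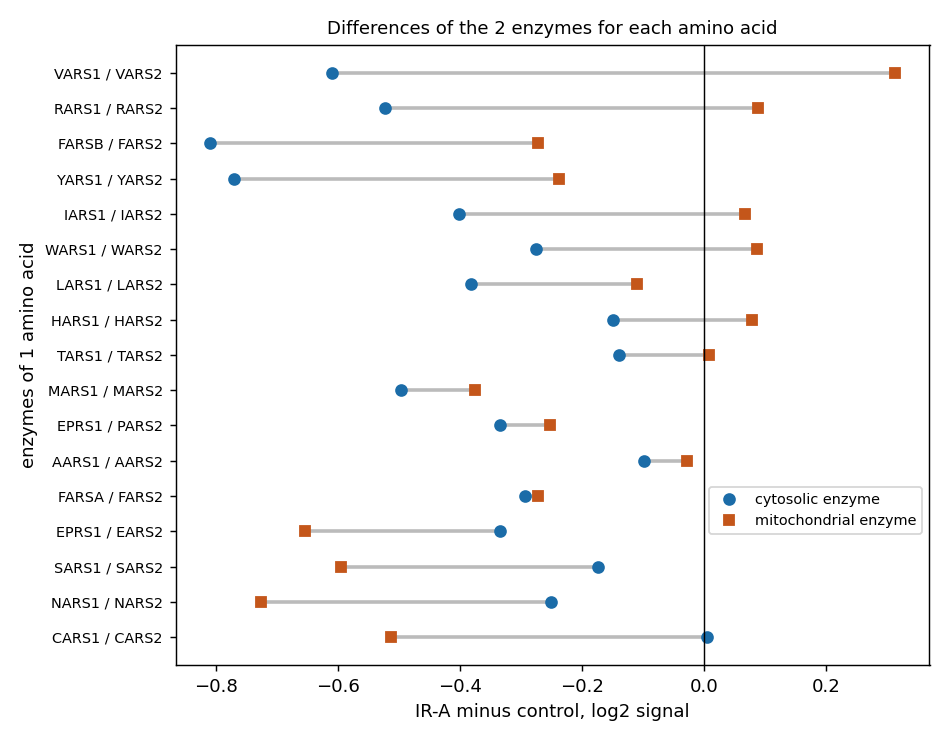
Difference between IR-A and control tumours on the log2 scale for the cytosolic (circle) and mitochondrial (square) enzyme of the same amino acid in 17 pairs; EPRS1 and FARS2 appear in 2 pairs each. Pairs are ordered by the gap, from valine with the cytosolic enzyme 0.92 lower to cysteine with it 0.52 higher.

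Averaged over genes and centred on the control mean, the cytosolic enzymes lay at 0.14, -0.10 and -0.04 in the controls and at -0.42, -0.49 and -0.16 in IR-A tumours. IR-A tumour 3 was thus nearest to the controls, and it was the highest IR-A tumour in 16 of 19 cytosolic genes. Signals below all 3 controls were found for 17, 17 and 11 of the 19 genes in IR-A tumours 1, 2 and 3, against 32.2%, 25.7% and 23.0% of all probe sets. Control tumour 1 was the highest control in 15 of the 19 genes.

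The mitochondrial enzymes averaged -0.0023, 0.08 and -0.08 in the controls and -0.10, -0.37 and -0.12 in IR-A tumours. IR-A tumour 2 was the lowest of its group in 11 of the 16 genes, and the other pair of IR-A tumours lay just below the lowest control. The cytosolic mean minus the mitochondrial mean read 0.14, -0.18 and 0.04 in control and -0.32, -0.13 and -0.03 in IR-A tumours. These gaps overlapped (0 ± 0.17 against -0.16 ± 0.15, SD, n = 3). The shift of the cytosolic set beyond that of the mitochondrial set was thus about as large as the spread between tumours. The cytosolic set by itself shifted by -0.36 (SD 0.13 in control and 0.18 in IR-A tumours), without overlap. The gap between the class medians was -0.16. It was -0.087 without control tumour 1, -0.31 without control tumour 2, -0.097 after quantile normalization and -0.077 with the 2 probe sets matched by gene ID alone. The mitochondrial median came to -0.046 with IR-A tumour 2 left out and to -0.092 with control tumour 2 left out. By catalytic fold, class I genes had a median difference of -0.33 (14 of 19 below 0) and class II genes of -0.25 (15 of 17 below 0), with EPRS1 in both. Their mean differences were nearly equal, at -0.28 for class I and -0.29 for class II.

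**Figure D4:**
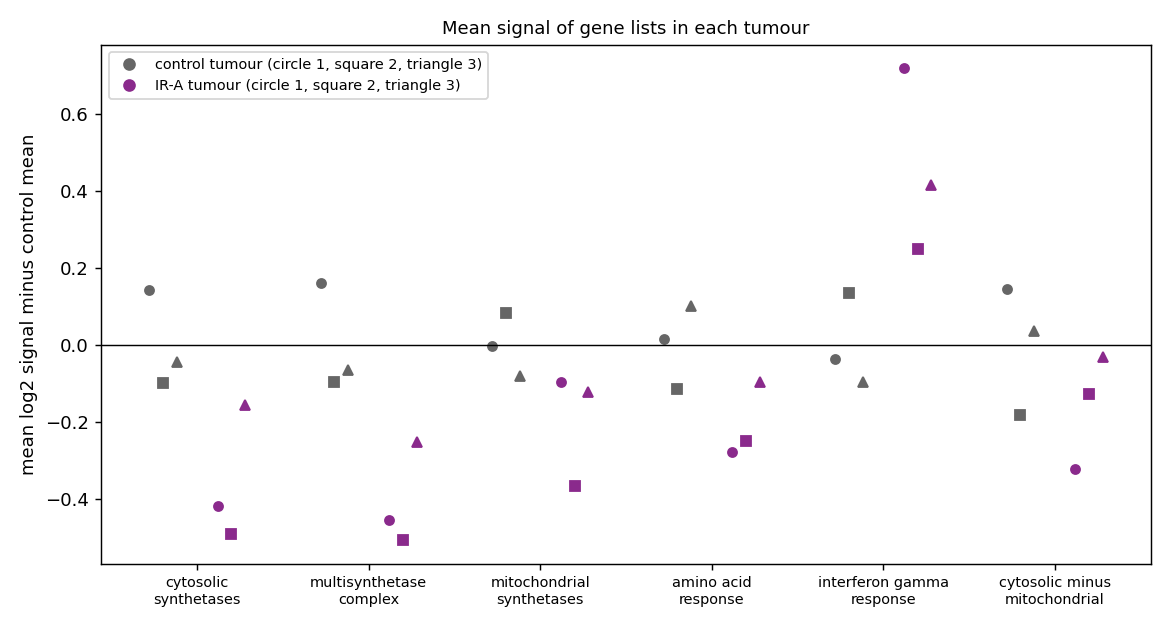
Mean log2 signal of 5 gene lists in each tumour, centred on the control mean, and the cytosolic minus the mitochondrial synthetase mean. Control and IR-A tumours are apart for the cytosolic, multisynthetase complex and interferon gamma lists and, narrowly, for the mitochondrial list, and overlap in the amino acid response list and in the last column.

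Steps next to charging were measured too. In limma 0 of these genes passed the adjusted p of 0.05. Of 6 genes of transfer RNA export and delivery, all lay below 0 (56% of all probe sets did) and 4 were lower at an unadjusted p under 0.05 (66.7%, against 7.03%). EEF1B2, an exchange factor that reloads the elongation factor which brings charged transfer RNA to the ribosome, read 8.04, 8.12 and 8.09 in control and 7.10, 6.98 and 7.40 in IR-A tumours. Its groups were far apart relative to their spread, and its difference was -0.92 (SE 0.13, adjusted p = 0.124 in limma). EEF1G, of the same exchange complex, differed by -0.47, the transfer RNA exporter XPOT by -0.43 and the RNA exporter XPO5 by -0.55. TARS3, a further threonyl enzyme outside the naming rule, differed by -0.40 (SE 0.20). Of the factors that clear wrongly charged transfer RNA, DTD1 differed by -0.51 and DTD2 by 0.31, and the selenocysteine enzymes PSTK (0.02) and SEPSECS (0.07) were near 0.

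The amino acid response list holds ATF4, its targets, the kinases upstream and EIF2S1, the initiation factor subunit on which those kinases act. Of its 28 genes 19 lay below 0 (median -0.19, or -0.11 without control tumour 3), with 8 lower (28.6%, against 7.03% of all probe sets) and 3 higher (10.7%, against 7.1%) at an unadjusted p under 0.05. ASNS, the asparagine synthetase, averaged 7.72 ± 0.48 in control and 6.65 ± 0.57 in IR-A tumours (SD, n = 3 each), a difference of -1.06 (SE 0.34) with no overlap between the groups. The amino acid transporter SLC7A5 (-1.11), the translation repressor EIF4EBP1 (-0.93) and the mitochondrial folate enzyme MTHFD2 (-0.91) were the others of smallest p. The 3 higher genes at that level were VLDLR (0.56), PSPH (0.33) and ATF5 (0.33). ATF4 itself differed by -0.33, with an unadjusted p of 0.0376 in limma and no overlap. CHAC1 (-0.31), TRIB3 (-0.22) and DDIT3 (0.14), targets that respond strongly to ATF4, had overlapping groups and unadjusted p values from 0.0813 to 0.719. ATF4 and the last 3 genes were picked after their values were seen.

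WARS1 is a synthetase that interferon gamma induces in many cells. Here it read 7.26, 7.07 and 6.98 in control and 6.93, 6.50 and 7.04 in IR-A tumours, with overlapping groups. The list of other interferon gamma response genes also holds the receptor genes IFNGR1 and IFNGR2 and the kinase JAK2, which act upstream. Its median difference was 0.43, with 4 of 15 below 0 (26.7%, against 56% of all probe sets). At an unadjusted p under 0.05, 7 were higher (46.7%, against 7.1%), JAK2 and IFNGR2 among them. The chemokine CXCL10 (2.36), the transcription factor IRF1 (0.69), the kinase JAK2 (0.51) and the immunoproteasome subunit PSMB9 (0.46) had the smallest p values, all unadjusted and none past the adjusted threshold in limma. JAK2 read at most 4.54 and PSMB9 at most 4.20 in any tumour, below the median probe set (4.71). The 4 genes below 0 were IDO1 (-0.11), CXCL9 (-0.09), CIITA (-0.08) and TAP1 (-0.0080), and they too read below that median in every tumour.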

How the data were processed

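Total RNA of 3 IR-A and 3 control tumours was hybridised to 1 Affymetrix array each. The authors deposited 1 log2 signal for each probe set and array. Per the submitters' processing notes, RMA and Partek were used; neither their versions nor the probe set definition and build are known from the sources used here. The log2 scale was read from the values. RMA compresses differences of dim probe sets. All 35 members had means above the median probe set (4.71), but the mitochondrial members were dimmer than the cytosolic ones. Their mean signal per tumour ran from 6.45 to 6.90, against 8.44 to 9.07. The part of this in the smaller mitochondrial differences was not tested. Probe sets were named through GEO's probe annotation and RefSeq (GRCh38.p14). All 24726 probe sets were fitted with limma 3.58.1 in R 4.3.3 (lmFit, eBayes), with 95% moderated intervals and Benjamini-Hochberg adjustment; the script was tested on simulated data. Gene lists are described by counts and medians without a test. Members and lists were chosen with earlier results of these data known. Tumour values are given for members with an unadjusted p under 0.05 or groups without overlap (up to 8 per direction, by smallest p), for the 3 smallest differences, for WARS1 and the PARS2 controls, both added after their values were seen, and of other lists up to 4 genes of smallest p or all where a list has 5 or fewer. Alternatives were quantile normalization, median centring, filters on the dimmest 25% or 50%, an intensity trend, robust moderation, array weights, a block for the replicate number, and the omission of each tumour in turn. Figures used matplotlib 3.10.9.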

Additional observations from a re-analysis of the deposited data

How the results depend on the processing

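The count of synthetases past the adjusted threshold was 0 as reported and 0 in every alternative fit except leaving out 1 tumour. There it ran from 0 to 1. At an unadjusted p under 0.05 the count as reported was 14 (40%, against 14.1% of all probe sets). The median of the mitochondrial enzymes, -0.17, ran from -0.24 to -0.046 over left-out tumours, the latter without IR-A tumour 2, and that of the cytosolic enzymes, -0.33, from -0.40 to -0.23. The gap between both medians, -0.16, ran from -0.31 to -0.087 over left-out tumours and was -0.23 with array weights and -0.12 without GARS1 and KARS1. The count with the 2 probe sets matched by gene ID alone, an alternative chosen after the data were seen, was 0, with a gap of -0.077. The replicate number as a block (replicate block) gave 0 calls and 11 members lower at an unadjusted p under 0.05. In that fit 10.9% of all probe sets passed this level in either direction. Same-numbered tumours did not deviate together (r from -0.36 to 0.02), so the numbers were not taken as pairs. With IR-A tumour 3 left out 17 members lay lower at that level, which 12% of all probe sets then passed in either direction. Of 35 members 29 kept their direction in all 14 settings. Quantile normalization turned CARS1 (-0.020) and TARS2 (-0.019). Over left-out tumours CARS1 ran from -0.13 to 0.11, TARS2 from -0.18 to 0.18, HARS1 from -0.38 to 0.00048, HARS2 from -0.028 to 0.16, IARS2 from -0.084 to 0.22 and PARS2 from -0.43 to 0.075.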
